A study of Mus musculus with 6 samples.

Results

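The genes described here are 36 genes of the interferon response and of class I antigen presentation, out of 19079 genes in the deposited comparison of *Runx1* OE and Myh6-CreER control ventricles. They were chosen by gene symbol, with earlier results of these data known, and all 36 symbols were found. *Runx1* OE mice (n = 4) carried Myh6-CreER, a tamoxifen-inducible Cre driven by a cardiomyocyte promoter, together with a Rosa-Runx1 allele, and Myh6-CreER controls (n = 2) carried the Cre alone. Both groups were C57BL/6 littermates, both received tamoxifen at postnatal days 0 and 1, and RNA of heart ventricles was collected at postnatal day 10. The design text speaks of whole ventricles and the extraction protocol of left ventricles. Because the Cre acts in cardiomyocytes, and by the paper's account in only part of them, each value below is an average over cells with and without the transgene and over all other cell types of the tissue.

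Type I interferons bind a receptor on nearly every cell type and activate the kinases JAK1 and TYK2, which phosphorylate STAT2. With IRF9 it is part of a complex that binds the interferon-stimulated response element (ISRE) before the start of many antiviral genes. Interferon gamma acts through the gamma-activated site (GAS) and through IRF1, and induces GTPases that attack intracellular pathogens as well as genes that load peptides on class I molecules. In the heart these genes are best known from viral myocarditis and from infarction, where nucleic acids of dying cells can trigger them in macrophages.

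The files used here give 1 mean per group, in normalized counts (reads divided by a size factor of the library), and no value could be assigned to a single mouse. The groups were therefore compared by the authors' means: 1 normalized count was added to each, that of *Runx1* OE was divided by that of the controls, and the log2 was taken. This ratio has no standard error and no test. A gene counted as past the fold when its ratio was at least 1.5 (0.58 on the log2 scale) in either direction and its mean over all 6 samples at least 10 normalized counts, which 15181 genes reached. In place of single libraries, the deposited maximum and geometric mean over the 6 samples set limits: they show in which group the highest library lay, how much of the *Runx1* OE mean it carried, and the least that the ratio would be without it. Normalized counts are not divided by transcript length, so levels are compared between groups, and a higher count of one gene than of another is not a higher amount of RNA.

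*Runx1* itself averaged 16622 normalized counts in *Runx1* OE and 40.2 in controls, and every *Runx1* OE library lay above both controls by these limits. *Xist*, the RNA of the inactive X chromosome of female cells, averaged 4584 normalized counts in *Runx1* OE and 8.92 in controls, of which neither could exceed 18.0. The lowest *Runx1* OE library lay between 1.89 and 3614 normalized counts, so whether all *Runx1* OE mice were female was undetermined. The Y-linked genes *Ddx3y*, *Eif2s3y*, *Kdm5d* and *Uty* were not among the genes compared, so *Xist* alone speaks to sex here. With group means alone, sex and genotype cannot be told apart in any value below. None of the 36 genes lies on a sex chromosome. The median log2 ratio of all tested genes was 0.01, and the middle 50% of them lay between -0.14 and 0.18.

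Sequences before the start of 8 of these genes are shown here because interferon acts on many genes through the elements they hold. Isg15, Ifit1, Ifit3, Oas1a and Gbp3 are the members past the fold that have a RefSeq promoter window. B2m is the only class I antigen presentation gene of the list in which the element was found. H2-K1, H2-D1 and Tap1 had none in their windows, and Tap2 had no window. Irf1 stands for the gamma-activated site. Rsad2 stands for a gene that has the element and a ratio within the fold (log2 0.15, which 29.2% of all tested genes exceeded). Each is written on the strand of its gene, with the ISRE in capitals for the first 7 genes and the GAS in capitals for Irf1. The ISRE was searched as a pair of GAAA separated by 2 bases, or its reverse complement, and the GAS as TTCNNNGAA. Elements that differ from these letters were not counted. The stretches of *Oas1a*, *Gbp3* and *B2m* were kept to 30 bases, since another annotated transcript of the gene has an exon there.
Isg15: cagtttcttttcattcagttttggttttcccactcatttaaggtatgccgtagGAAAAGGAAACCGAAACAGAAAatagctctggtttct
Ifit1: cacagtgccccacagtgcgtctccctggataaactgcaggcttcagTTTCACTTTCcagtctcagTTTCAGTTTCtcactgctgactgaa
Ifit3: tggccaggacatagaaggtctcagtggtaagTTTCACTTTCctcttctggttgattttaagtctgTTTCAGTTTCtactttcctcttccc
Oas1a: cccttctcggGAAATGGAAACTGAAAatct
Gbp3: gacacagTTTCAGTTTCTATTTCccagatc
B2m: tttataagaacatGAAACTGAAAatgggaa
Rsad2: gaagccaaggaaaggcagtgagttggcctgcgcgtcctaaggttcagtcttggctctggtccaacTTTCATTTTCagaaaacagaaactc
Irf1: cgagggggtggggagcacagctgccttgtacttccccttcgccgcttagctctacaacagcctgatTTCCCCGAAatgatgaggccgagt

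These stretches were taken from RefSeq's table for GRCm38.p6 and their windows of 300 bases were found once each, without a mismatch, in GRCm39, the build of all coordinates here. The *Isg15* stretch lies at chr4:156285317-156285406 on the minus strand and holds 3 overlapping matches. The *Ifit1* and *Ifit3* stretches lie at chr19:34618139-34618228 and chr19:34560742-34560831 on the plus strand, with 2 separate matches each. The *Oas1a* stretch (chr5:121045589-121045618, minus strand) and the *Gbp3* stretch (chr3:142265753-142265782, plus strand) each hold 2 overlapping matches. The *B2m* stretch (chr2:121978016-121978045, plus strand) and the *Rsad2* stretch (chr12:26506547-26506636, minus strand) hold 1 match each, and the *Irf1* stretch (chr11:53660685-53660774, plus strand) holds the GAS. Overlapping ISRE matches also occur in members not shown that stayed within the fold, *Bst2* (log2 ratio 0.34) and *Irgm1* (log2 ratio 0.15). Whether the number of matches goes with the ratio was not tested.

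Of the 36 genes, 28 had a promoter window in the table, from 250 bases before to 50 bases after the start. *Dhx58*, *Zbp1*, *Mx1*, *Mx2*, *Usp18*, *Parp14*, *Ifi27* and *Tap2* had none. An ISRE was found in 16 of the 28 (57.1%), against 3.99% of the 27025 genes with a window. A GAS was found in 8 of 28 (28.6%), against 9.55% of all genes. The RUNX motif, searched as TGTGGT or TGCGGT on both strands, was found in 4 of 28 (14.3%), in *Stat2*, *Oasl2*, *Ifi35* and *Gbp2*, against 25% of all genes. Among the tested members, 5 of 15 with an ISRE in the window were past the fold (median log2 ratio 0.34), 0 of 12 without one (median 0.23), and 1 of 6 with no window in the table, *Mx2* (median 0.05). Over all tested genes the shares past the fold in the higher direction were 5.82% of 395 genes with an ISRE in the window, 4.50% of 10358 without one and 6.71% of 4428 with no window, and 5.18% in all. The difference between the classes of members was not tested.

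**Figure D1:**
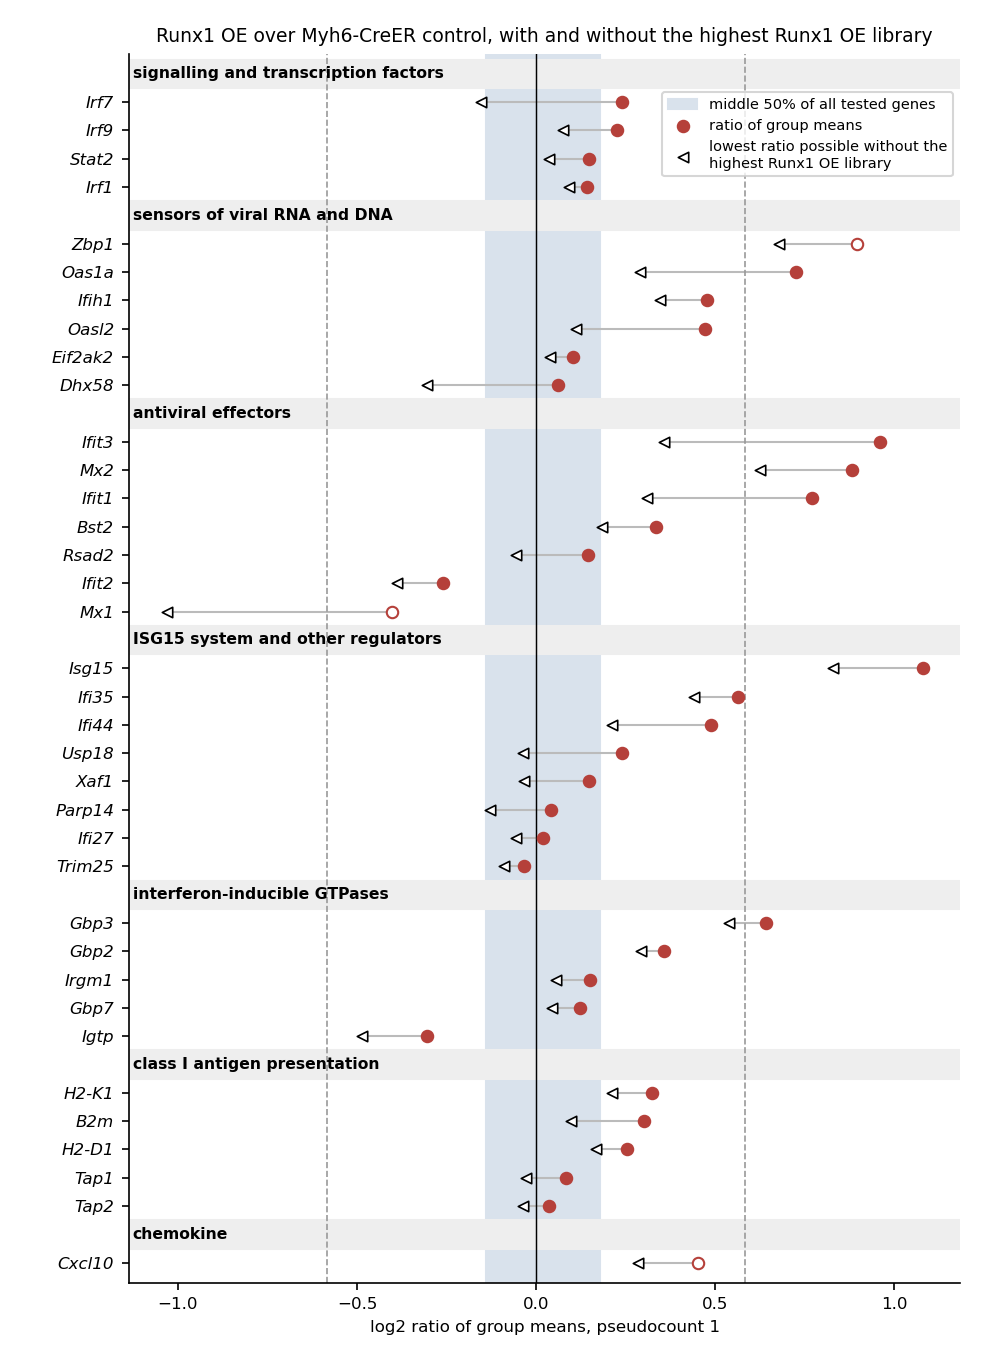
Log2 ratio (*Runx1* OE mean over Myh6-CreER control mean, x axis) for each of the 36 genes, grouped by role. Filled points are genes that reached a mean of 10 normalized counts, open points the 3 genes below it, open triangles the lowest ratio possible without the highest *Runx1* OE library, the shaded band the middle 50% of all tested genes, and dashed lines a 1.5-fold ratio. Most points lie right of 0, and *Isg15* and *Mx2* are the tested genes whose triangle is still right of the dashed line.

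Most of the 36 genes had a higher mean in *Runx1* OE than in control ventricles, and for most of them the difference was small. Among the 33 genes that reached the minimum, 30 had the higher mean in *Runx1* OE (90.9%), against 51.9% of all tested genes. Genes of this response can vary together from mouse to mouse, so they are not separate observations of the genotype. The median log2 ratio was 0.24, against 0.01 over all tested genes. A ratio of at least 1.5 was reached by 6 of the 33 in the higher direction (18.2%, against 5.18% of all tested genes) and by 0 in the lower direction (3.76% of all tested genes). The 6 were *Isg15*, *Ifit3*, *Mx2*, *Ifit1*, *Oas1a* and *Gbp3*. The remaining 27 stayed within 1.5-fold, from -0.30 for *Igtp* to 0.56 for *Ifi35*.

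Of the 6 genes past the fold, 5 had a low level, where a ratio of that size was more common among all genes. With the genes parted at a mean of 100 normalized counts, a division chosen after the values were seen, 5 of 8 members below it were past the fold, against 11.9% of all tested genes at that level. Above it the count was 1 of 25 members, against 2.30% of all tested genes. The median log2 ratio of the members was 0.75 below that level and 0.15 above it, and that of all tested genes was 0.08 and -0.01.

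The highest library was certainly a *Runx1* OE library in 29 of the 33 genes (87.9%), against 44.1% of all tested genes, where 4 of the 6 libraries were *Runx1* OE. Over these 29 genes that library carried a median of 32.2% of the *Runx1* OE total, against 29.9% over the 6696 tested genes with the same placing, where an equal share would be 25%. Without that library the log2 ratio was certainly above 0 in 21 of the 33 genes (63.6%, against 36.5% of all tested genes), and 2 of the 33 (6.06%, against 3.00%) were certainly still past the fold. The placing of the highest library and the sign without it depend in large part on which group had the higher mean. That group was *Runx1* OE in 90.9% of the members and 51.9% of all tested genes, so these shares add little to that count. Whether the highest library was the same mouse from gene to gene was not examined. The limits placed every *Runx1* OE library above both controls in 0 of the 33 genes (3.41% of all tested genes). In 10 of the 33 (30.3%, against 50.7% of all tested genes) at least 1 *Runx1* OE library lay at or below a control, and in 23 (69.7%, against 45.9%) the limits left this undetermined.

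**Figure D2:**
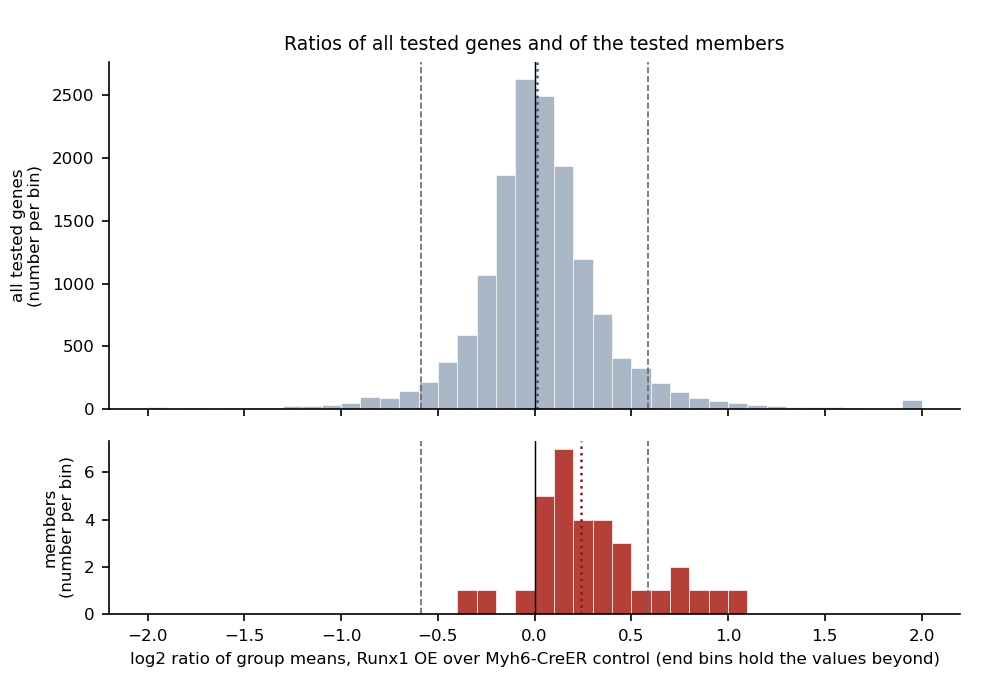
Number of genes per bin of the log2 ratio of group means, for all 15181 tested genes (upper panel) and for the 33 tested members (lower panel). Dashed lines mark a 1.5-fold ratio, dotted lines the medians of 0.01 for all tested genes and 0.24 for the members, and the end bins collect values beyond the axis.

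*Isg15* had the highest ratio of the 36 genes. It encodes a ubiquitin-like protein that is attached to other proteins during the interferon response, and lies at chr4:156283912-156285253. Its mean was 61.4 normalized counts in *Runx1* OE and 28.5 in controls, a log2 ratio of 1.08 that 1.36% of all tested genes exceeded. The highest library, a *Runx1* OE library, had 90.7 normalized counts, the other 3 averaged at least 51.5, and no control library could have more than 42.4. The lowest *Runx1* OE library lay between 25.6 and 51.9 normalized counts, so whether it overlapped the controls was undetermined. Without the highest library the log2 ratio was at least 0.83. Of the exonic bases of *Isg15*, 34.6% are shared with an annotated gene on the opposite strand, *Gm46878*.

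The other genes around ISG15 differed less. *Usp18*, the protease that removes ISG15 and dampens signalling from the type I receptor, averaged 28.6 normalized counts in *Runx1* OE and 24.02 in controls (log2 ratio 0.24). Its highest library had 43.5 normalized counts, and without it the bound was -0.04. *Trim25*, a ubiquitin and ISG15 ligase that acts on the sensor RIG-I, averaged 699 normalized counts in *Runx1* OE and 716 in controls (log2 ratio -0.03). Of ISG15, its protease and this ligase, only the gene of ISG15 itself was therefore past the fold.

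Of the other regulators, *Ifi35* had the largest ratio short of the fold. It averaged 182 normalized counts in *Runx1* OE and 123 in controls, a log2 ratio of 0.56, and at least 0.44 without the highest library of 225 normalized counts. Of its exonic bases 26.4% are shared with *Gm11626* and *Vat1* on the opposite strand. *Ifi44*, an interferon-induced gene, averaged 66.1 normalized counts in *Runx1* OE and 46.8 in controls (log2 ratio 0.49, at least 0.21 without the highest library). *Xaf1*, which encodes a proapoptotic antagonist of XIAP, averaged 152 normalized counts in *Runx1* OE and 137 in controls (log2 ratio 0.15). *Parp14*, a mono-ADP-ribosyltransferase, averaged 298 normalized counts in *Runx1* OE and 289 in controls (log2 ratio 0.04). *Ifi27*, which encodes a small hydrophobic protein, averaged 158 in *Runx1* OE and 156 in controls (log2 ratio 0.02). The bounds without the highest library were below 0 for *Xaf1*, *Parp14* and *Ifi27*, at -0.03, -0.13 and -0.06.

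**Figure D3:**
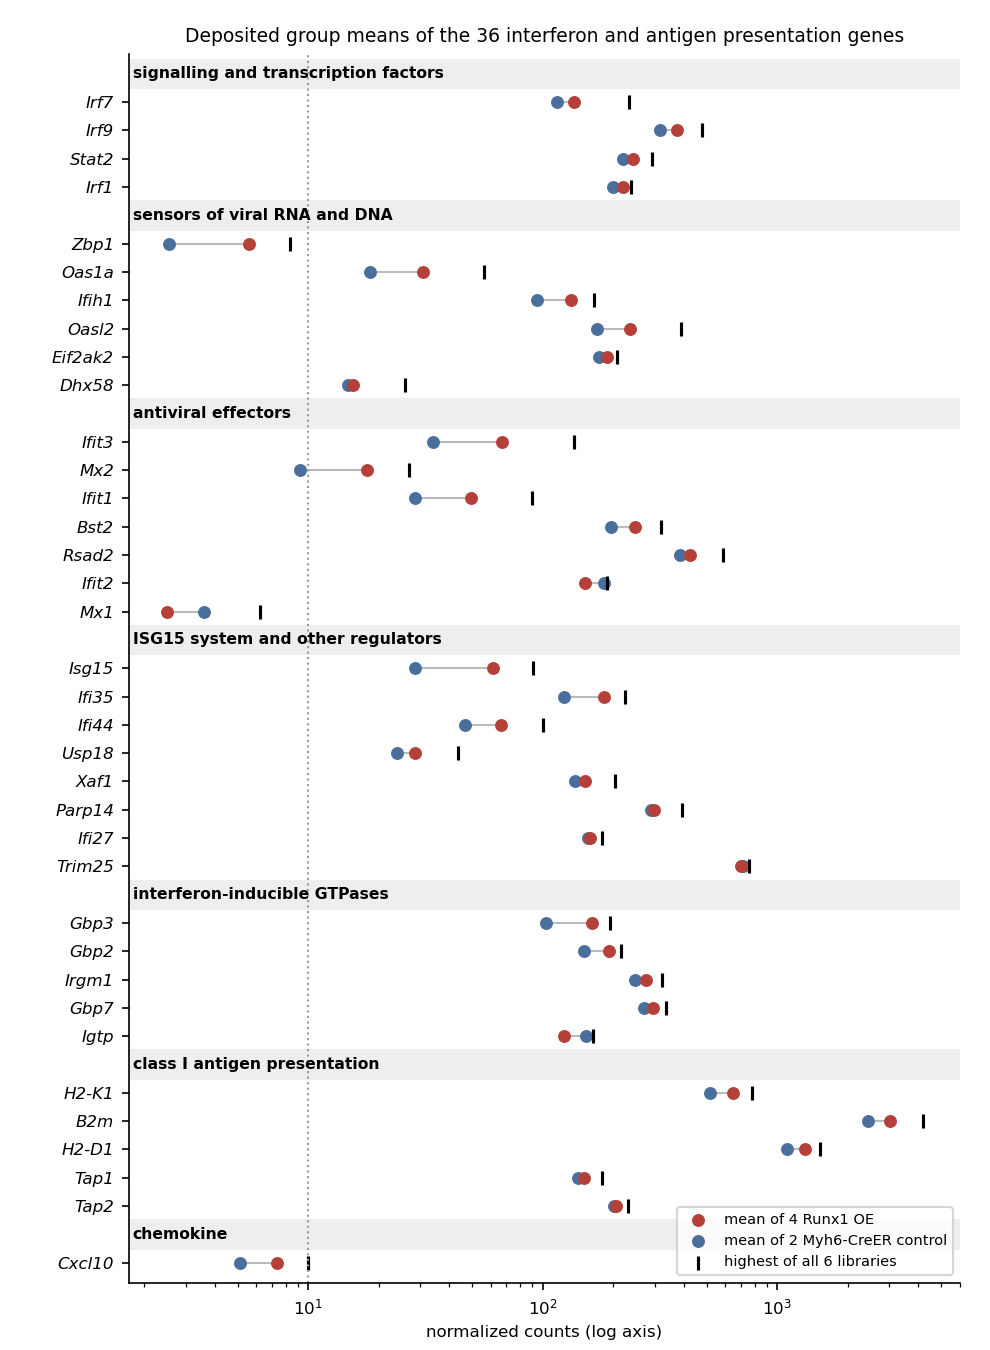
Group means of the 36 genes in normalized counts (log axis), for 4 *Runx1* OE (red) and 2 Myh6-CreER control libraries (blue), with the highest of all 6 libraries as a black bar and the minimum of 10 as a dotted line. The highest library stands well to the right of the *Runx1* OE mean for *Ifit3*, *Ifit1*, *Oas1a*, *Oasl2*, *Irf7* and *Dhx58*, for which it carried 41.2% to 50.6% of the *Runx1* OE total.

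The antiviral effectors held 3 of the 6 genes past the fold. *Ifit3*, whose human product binds IFIT1 and stabilizes it on viral RNA, lies at chr19:34560931-34566131. It averaged 67.2 normalized counts in *Runx1* OE and 34.1 in controls, a log2 ratio of 0.96. One library had 136 normalized counts and carried 50.6% of the *Runx1* OE total. The other 3 *Runx1* OE libraries averaged at least 44.0 normalized counts, and the log2 ratio without the highest was at least 0.36. *Ifit1*, which binds viral RNA that lacks methylation of its cap (chr19:34618271-34627409), averaged 49.3 normalized counts in *Runx1* OE and 28.5 in controls. Its log2 ratio was 0.77, and at least 0.31 without the highest library, which had 89.8 normalized counts and carried 45.5% of the total. Both genes were thus past the fold only with their highest library.

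*Ifit2* lies in the same cluster, at chr19:34528094-34553819, and had the opposite sign. It averaged 152 normalized counts in *Runx1* OE and 182 in controls, a log2 ratio of -0.26 that does not reach the fold. The highest of all 6 libraries, with 188 normalized counts, was a control. Of the neighbouring Ifit genes, those for IFIT1 and IFIT3 therefore had higher means in *Runx1* OE, and that for IFIT2 a lower one. Reads of near-identical Ifit copies, such as *Ifit3* and *Ifit3b*, may have been split between them by the counting, which was not tested.

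*Mx2*, the gene of a dynamin-like GTPase, averaged 17.8 normalized counts in *Runx1* OE and 9.21 in controls. Whether it makes a working protein in C57BL/6 mice was not examined. The log2 ratio was 0.88, and at least 0.63 without the highest library of 26.9 normalized counts, so that *Mx2* (chr16:97336508-97362100), like *Isg15*, stayed past the fold without it. The lowest *Runx1* OE library lay between 8.79 and 14.9 normalized counts, and the higher control between 9.12 and 12.8. *Mx1*, the influenza resistance gene, is disrupted in C57BL/6 mice. It averaged 2.49 normalized counts in *Runx1* OE and 3.60 in controls, below the minimum.

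*Bst2*, which encodes tetherin, a membrane protein that holds budding virus particles at the cell surface, averaged 247 normalized counts in *Runx1* OE and 195 in controls. Its log2 ratio was 0.34, and at least 0.18 without the highest library. *Rsad2*, the gene of the antiviral enzyme viperin, averaged 426 normalized counts in *Runx1* OE and 385 in controls, a log2 ratio of 0.15. Its highest library had 585 normalized counts, without which the bound was -0.06, and at least 1 *Runx1* OE library lay below the higher control.

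Of the sensors, *Oas1a* alone was past the fold. OAS1 makes 2'-5' oligoadenylate on double-stranded RNA, which activates RNase L. *Oas1a* (chr5:121034319-121045584) averaged 31.0 normalized counts in *Runx1* OE and 18.3 in controls, a log2 ratio of 0.73. Its highest library had 56.0 normalized counts and carried 45.2% of the *Runx1* OE total, and the ratio without it was at least 0.29. *Oas1a* has near-identical neighbours, among them *Oas1g*, so its counts may include reads of theirs. *Oasl2*, an OAS-like protein gene, averaged 236 normalized counts in *Runx1* OE and 170 in controls (log2 ratio 0.47), with a highest library of 390 normalized counts and a bound of 0.11 without it.

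*Ifih1*, the gene of MDA5, which senses long double-stranded RNA in the cytosol, averaged 132 normalized counts in *Runx1* OE and 94.9 in controls. Its log2 ratio was 0.48, which 7.64% of all tested genes exceeded, and at least 0.35 without the highest library. *Eif2ak2* encodes PKR, a kinase that stops translation on double-stranded RNA, and averaged 188 normalized counts in *Runx1* OE and 175 in controls (log2 ratio 0.10). *Dhx58*, the gene of LGP2, a regulator of MDA5, averaged 15.5 normalized counts in *Runx1* OE and 14.8 in controls (log2 ratio 0.06). The sensors thus did not share 1 ratio: *Ifih1*, *Oasl2* and *Oas1a* lay at 0.47 or above, and *Eif2ak2* and *Dhx58* at 0.10 and 0.06. *Zbp1*, a sensor of Z-form nucleic acids, was below the minimum, at 5.61 normalized counts in *Runx1* OE and 2.55 in controls.

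The factors that transmit the interferon signal differed little. *Irf7*, the master regulator of later type I interferon production, averaged 136 normalized counts in *Runx1* OE and 115 in controls, a log2 ratio of 0.24. One *Runx1* OE library had 232 normalized counts, or 42.6% of the total, and the bound without it was -0.15. The lowest *Runx1* OE library had at most 105 normalized counts and the higher control at least 114, so the groups overlapped. *Irf9*, the DNA-binding subunit of the ISRE-binding complex, averaged 372 normalized counts in *Runx1* OE and 318 in controls (log2 ratio 0.23, at least 0.07 without the highest library). *Stat2*, its partner, averaged 243 normalized counts in *Runx1* OE and 219 in controls (log2 ratio 0.15). *Irf1*, the regulator of interferon gamma targets and of class I genes, averaged 220 normalized counts in *Runx1* OE and 199 in controls (log2 ratio 0.14), and 45.7% of its exonic bases are shared with genes on the opposite strand. The 4 factors had the higher mean in *Runx1* OE and none reached the fold.

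The interferon-inducible GTPases of the list were divided. GBPs are large GTPases that coat the membranes of intracellular pathogens, and *Gbp7*, *Gbp3* and *Gbp2* lie in 1 cluster on chromosome 3. *Gbp3* (chr3:142265787-142278970) averaged 162 normalized counts in *Runx1* OE and 104 in controls, a log2 ratio of 0.64. Its highest library had 194 normalized counts and carried 29.9% of the *Runx1* OE total, the most even share of the 6 genes past the fold. Without that library the log2 ratio was at least 0.54, just under the fold. The lowest *Runx1* OE library lay between 111 and 153 normalized counts and the higher control between 103 and 130.

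*Gbp2* averaged 192 normalized counts in *Runx1* OE and 150 in controls (log2 ratio 0.36, at least 0.29 without the highest library), and *Gbp7* 294 in *Runx1* OE and 270 in controls (log2 ratio 0.12). The neighbours in this cluster therefore had ratios of different size, all above 0. IRG proteins are small GTPases that act on the vacuoles of intracellular parasites. *Irgm1*, which regulates the others, averaged 275 normalized counts in *Runx1* OE and 248 in controls (log2 ratio 0.15). *Igtp*, also known as IRGM3, averaged 123 in *Runx1* OE and 153 in controls, at -0.30 the lowest log2 ratio of the tested members. Its highest library, with 164 normalized counts, was a control.

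The class I genes had higher means in *Runx1* OE throughout and stayed within the fold. *B2m*, the invariant light chain of every class I molecule, averaged 3018 normalized counts in *Runx1* OE and 2447 in controls, a log2 ratio of 0.30. One library had 4164 normalized counts, and without it the bound was 0.10. *H2-K1*, a class I heavy chain, averaged 647 normalized counts in *Runx1* OE and 516 in controls (log2 ratio 0.33, at least 0.21 without the highest library). *H2-D1*, the other heavy chain of the list, averaged 1316 normalized counts in *Runx1* OE and 1104 in controls (log2 ratio 0.25, at least 0.17). Heavy chain genes are near-identical in long stretches, and 26.9% and 23.8% of the exonic bases of *H2-K1* and *H2-D1* are shared with genes on the opposite strand. The light chain and both heavy chains therefore lay close together.

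The peptide transporter genes differed less. *Tap1* averaged 150 normalized counts in *Runx1* OE and 141 in controls (log2 ratio 0.08), and *Tap2* 206 in *Runx1* OE and 201 in controls (log2 ratio 0.04). Both bounds without the highest library were below 0, at -0.03 and -0.04. *Cxcl10*, the chemokine that draws activated T cells, was below the minimum, at 7.35 normalized counts in *Runx1* OE and 5.11 in controls.

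**Figure D4:**
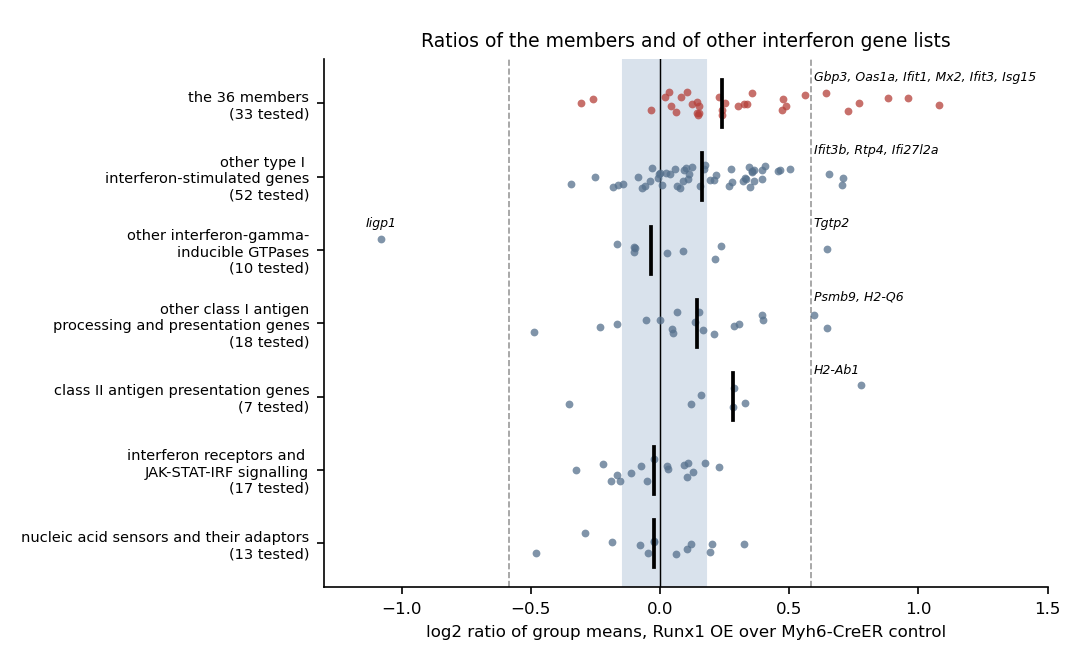
Log2 ratio of group means for the 33 tested members and for the tested genes of 6 other lists of the interferon system (1 point per gene, vertical scatter for display, bars the medians). Dashed lines mark a 1.5-fold ratio, the shaded band the middle 50% of all tested genes, and genes past the fold are named.

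Other genes of the interferon system were described from lists of textbook members. Of 52 other type I interferon-stimulated genes that were tested, 39 had the higher mean in *Runx1* OE (75.0%, against 51.9% of all tested genes). The median log2 ratio was 0.16. In the higher direction 3 were past the fold (5.77%, against 5.18% of all tested genes) and in the lower 0 (3.76% of all tested genes). The 3 were *Rtp4* (215 normalized counts in *Runx1* OE, 131 in controls, log2 ratio 0.71), *Ifi27l2a* (44.0 in *Runx1* OE and 26.5 in controls, log2 ratio 0.71) and *Ifit3b* (18.5 in *Runx1* OE and 11.4 in controls, log2 ratio 0.65). None of them was certainly past the fold without the highest *Runx1* OE library. *Ifit3b* is a near copy of *Ifit3*, and *Ifi27l2a* lies opposite *Ifi27*. The 3 genes of that list with the most normalized counts were *Ifitm2* (1803 normalized counts in *Runx1* OE, 1850 in controls), *Slfn5* (1219 in *Runx1* OE and 1279 in controls) and *Ifitm3*, whose product blocks virus entry (1070 in *Runx1* OE and 830 in controls, log2 ratio 0.37).

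Other interferon gamma-inducible GTPases did not share the direction of the members. Of 10 tested, 5 had the higher and 5 the lower mean in *Runx1* OE, with a median log2 ratio of -0.03. *Iigp1*, an IRG protein that attacks parasite vacuoles, averaged 155 normalized counts in *Runx1* OE and 329 in controls, a log2 ratio of -1.08. No *Runx1* OE library could have more than 222 normalized counts and no control fewer than 294, so every *Runx1* OE library lay below both controls, as in 5.76% of all tested genes. *Tgtp2* averaged 36.5 normalized counts in *Runx1* OE and 22.96 in controls (log2 ratio 0.65, at least 0.47 without the highest library). The 3 genes of the list with the most normalized counts were *Gbp9* (445 normalized counts in *Runx1* OE, 475 in controls), *Gvin1* (357 in *Runx1* OE and 303 in controls) and *Irgm2* (255 in *Runx1* OE and 286 in controls), whose exons overlap those of *Igtp*.

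Of 18 other tested genes of class I processing and presentation, 14 had the higher mean in *Runx1* OE (77.8%, against 51.9% of all tested genes). The median log2 ratio was 0.14. In the higher direction 2 were past the fold (11.1%, against 5.18% of all tested genes) and in the lower 0 (3.76% of all tested genes). *Psmb9*, a subunit of the immunoproteasome and 1 of these 2, averaged 43.2 normalized counts in *Runx1* OE and 28.3 in controls (log2 ratio 0.60, at least 0.52 without the highest library). The other, the nonclassical heavy chain gene *H2-Q6*, averaged 21.6 in *Runx1* OE and 13.5 in controls (log2 ratio 0.65, at least 0.32). Most normalized counts of the list fell on chaperone genes: *Calr* averaged 4302 normalized counts in *Runx1* OE and 4822 in controls, *Pdia3* 2603 in *Runx1* OE and 2600 in controls, and *Canx* 2745 in *Runx1* OE and 3850 in controls (log2 ratio -0.49). These chaperones also serve protein folding outside antigen presentation.

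Of 7 tested class II genes, which antigen-presenting cells express, 6 had the higher mean in *Runx1* OE (85.7%, against 51.9% of all tested genes). *H2-Ab1* alone was past the fold (14.3%, against 5.18% of all tested genes), at 45.3 normalized counts in *Runx1* OE and 26.0 in controls. Its log2 ratio was 0.78, and at least 0.581 without the highest library, just under the fold. *Cd74*, the invariant chain, averaged 185 normalized counts in *Runx1* OE and 152 in controls (log2 ratio 0.29), the protease gene *Ctss* 125 in *Runx1* OE and 112 in controls, and the reductase gene *Ifi30* 106 in *Runx1* OE and 97.5 in controls. The median log2 ratio of the list was 0.28.

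The receptors and their signalling chain showed no such shift. Of 17 tested genes, 8 had the higher mean in *Runx1* OE (47.1%, against 51.9% of all tested genes) and the median log2 ratio was -0.02. None was past the fold, which 5.18% of all tested genes passed in the higher and 3.76% in the lower direction. *Ifngr2*, a chain of the interferon gamma receptor, averaged 3493 normalized counts in *Runx1* OE and 4379 in controls (log2 ratio -0.33), *Stat3* 1910 in *Runx1* OE and 1872 in controls, and *Jak1* 1582 in *Runx1* OE and 1845 in controls (log2 ratio -0.22). Of 13 tested sensors and adaptors, 6 had the higher mean (46.2%, against 51.9% of all tested genes) and 0 were past the fold, with a median log2 ratio of -0.02. Among these, *Mavs*, the mitochondrial adaptor of RNA sensing, averaged 778 normalized counts in *Runx1* OE and 820 in controls, *Traf3* 396 in *Runx1* OE and 485 in controls, and *Ticam1* 287 in *Runx1* OE and 327 in controls. Of 12 interferon ligand genes none was among the genes of the table, and their levels were not analysed here.

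In RNA of whole tissue, fewer cells of a type and less RNA per cell cannot be told apart, and many of the 36 genes are well expressed in leukocytes and endothelial cells. Of 10 macrophage markers, 0 were past the fold, 5 had the higher and 5 the lower mean in *Runx1* OE, and their summed means were 2691 normalized counts in *Runx1* OE and 2627 in controls. *Lyz2*, which neutrophils also express, averaged 701 normalized counts in *Runx1* OE and 506 in controls (log2 ratio 0.47), and the other 9 summed to 1990.0 in *Runx1* OE and 2122 in controls, a lower sum in *Runx1* OE. *Csf1r*, the receptor that macrophages need to survive, averaged 410 normalized counts in *Runx1* OE and 510 in controls (log2 ratio -0.32), and *Mrc1*, a scavenger receptor of resident macrophages, 235 in *Runx1* OE and 305 in controls (log2 ratio -0.38). For both genes every *Runx1* OE library lay below both controls, as in 5.76% of all tested genes. Of the 5 markers with the higher mean, *Fcgr1* averaged 35.0 in *Runx1* OE and 27.6 in controls (log2 ratio 0.33). *C1qb* averaged 419 in *Runx1* OE and 378 in controls (log2 ratio 0.15), and *Cd68* and *C1qc* had log2 ratios of 0.03 and 0.01. The 4 markers of all leukocytes summed to 633 normalized counts in *Runx1* OE and 674 in controls, and the 6 endothelial markers to 17738 in *Runx1* OE and 19378 in controls, with 0 of either list past the fold. B cell markers summed to 85.4 normalized counts in *Runx1* OE and 93.1 in controls, and the 6 T and NK cell markers found to 44.3 in *Runx1* OE and 41.9 in controls, with 4 of the 6 below the minimum.

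Neutrophil markers, like most of the 36 genes, had higher means in *Runx1* OE. The 3 found summed to 68.7 normalized counts in *Runx1* OE and 37.3 in controls, *S100a9* was past the fold (28.9 in *Runx1* OE and 11.7 in controls, in normalized counts, log2 ratio 1.23), *Csf3r* was not (28.7 in *Runx1* OE and 19.95 in controls), and *S100a8* was below the minimum. Cardiomyocyte markers summed to 277676 normalized counts in *Runx1* OE and 346834 in controls, and *Ryr2* was past the fold in the lower direction. *Myh6* made up most of that difference, with 110044 normalized counts in *Runx1* OE and 164720 in controls, and the other 5 markers summed to 167631 in *Runx1* OE and 182114 in controls. *Myl2* (84374 in *Runx1* OE and 78674 in controls) and *Tnni3* (14647 in *Runx1* OE and 14299 in controls) had the higher mean in *Runx1* OE, and the remaining 4 the lower. Fibroblast markers summed to 30067 normalized counts in *Runx1* OE and 31010 in controls, and those of smooth muscle and pericytes to 18886 in *Runx1* OE and 21464 in controls, with 0 of either list past the fold. Erythroid markers summed to 98992 normalized counts in *Runx1* OE and 89933 in controls, and 1 of 6, *Slc4a1*, was past the fold in the higher direction. No marker that was found was at 0 in either group. The part of neutrophils, of macrophages, of red cells and of cardiomyocytes in the values of the 36 genes was not tested.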

How the data were processed

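RNA of P10 ventricles from 4 *Runx1* OE and 2 Myh6-CreER control mice was grouped by the genotype in the labels. The paper states that the authors mapped reads to mm39 with STAR, assigned them to Ensembl transcripts with Partek E/M and scaled the counts by the median ratio, whereas HISAT2 and mm9 appear in the submitters' processing notes. The deposited group means are a signal, normalized counts averaged by the authors over each group. The total, maximum, arithmetic and geometric mean over the samples are also the authors'. The deposited columns of fold changes with limits, p-values and adjusted p hold the authors' own comparison and were not used. Another 6 columns, 1 per sample, were left out because their names match no sample label, so there are no tests, standard errors or depths per sample. The means over all samples add up to 19422828 normalized counts.

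Ratios used a pseudocount of 1, a minimum mean of 10 and a fold of 1.5, a rule of size and not a test. Over the members, 4 times the *Runx1* OE mean plus 2 times the control mean differed from the deposited total by at most 0.65%, so the limits on single libraries allowed 1% on the control mean. The geometric mean and this slack were chosen after seeing the data. The limits were tested on simulated data. The 36 members and all lists were chosen with earlier results of these data known. Non-members are named by rule: the 3 genes with the highest mean of each interferon list, and its genes past the fold where there are 5 or fewer. The cell type markers are described as lists, and those named singly were picked after their values were seen.

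Coordinates are from the deposited table, on GRCm39. Its stop lies 1 past the last base of a gene, and the ends given here are 1 lower. All 36 identifiers are in GENCODE M39, and 18 members share exonic bases with a gene on the opposite strand, 5 of them over 20%. The sources used here do not give whether counting used strand. Promoter sequences are RefSeq's. Python 3.11.15, numpy 2.4.6, pandas 2.3.3, scipy 1.17.1 and matplotlib 3.10.9 were used.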

Additional observations from a re-analysis of the deposited data

How the results depend on the processing

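The number of members past the fold in the higher direction, 6 of 33, was 3 for means of 50 or more normalized counts, 13 at a ratio 25% above 1, 1 at a fold of 2 (*Isg15*) and 2 as a bound without the highest *Runx1* OE library (*Isg15* and *Mx2*). It was 6 or 7 with no filter, a pseudocount of 0 or 5, ratios centred on the median of tested genes, or equal totals, where *Ifi35* was added at 0.61. The bound without the highest library took *Oas1a*, *Ifit1*, *Ifit3* and *Gbp3* under the fold. In the lower direction the count was 0 under each of these settings that was run. Over all genes, the 786 higher and 571 lower genes became 1734 and 1174 with no filter, 363 and 362 with a mean of at least 50, 2063 and 1584 at a ratio 25% above 1, 247 and 168 at a fold of 2, and 455 higher genes in the bound without the highest library. No ratio past the fold changed its sign. With 2% of slack on the control mean in place of 1%, the highest library was certainly *Runx1* OE in 28 of 33 members, against 29. Leaving out the marker that differed most, an alternative chosen after seeing the data, turned the direction of 4 marker sums: macrophages (1990.0 normalized counts in *Runx1* OE, 2122 in controls), T and NK cells without *Cd4* (17.9 in *Runx1* OE, 21.97 in controls), B cells without *Cd79a* (60.2 in *Runx1* OE, 55.3 in controls) and all leukocytes without *Laptm5* (231 in *Runx1* OE, 214 in controls).

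No paired analysis was possible because the sample labels name no pairs or litters. The columns of values per sample carry no sample label. For that reason the planned limma fits, leaving out each replicate, and their other pseudocounts and filters were not run. Group means of 4 and 2 mice carry no spread, and no difference here was set against the variation between mice.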
